A study of Mus musculus with 103 samples.

Results

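Single muscle stem cells of 1 young mouse were divided by whether their well held transcripts of Myod1, the transcription factor that commits muscle stem cells to the muscle lineage, and every other gene was then compared between both sides. Wells were kept where at least 1000 Ensembl genes reached 1 TPM (a share of a library's transcripts, corrected for gene length), the level at which a gene is called found here. Of the 95 single-cell wells in the series, 64 came from the young mouse and 54 of these were kept. The other wells came from 1 mouse aged 24 months. Levels in its wells and in bulk libraries of young mice are given only at the end. Those bulk libraries are listed at 3 months, though their column names give a younger age. Myod1 was at 1 TPM or more in 16 of the 54 kept young wells and under 1 TPM in 38. The wells were thus chosen by the measured level of Myod1 and the number of genes found, which are given as a description. The cells on both sides came from 1 untreated C57BL/6 mouse aged 3 months, with no genetic change or transgene given. In the labels the source is the muscle stem cell, in the design text the myoblast, which is the dividing progeny of such cells. A culture medium with fibroblast growth factor is described, and it is not said if the RNA is from fresh or cultured cells. The sort gate is not given either. Wells of 1 mouse are not replicates of a condition, so no p-value was computed, and differences are described by their size.

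Muscle stem cells, or satellite cells, lie quiescent under the basement membrane of the muscle fibre and carry the transcription factor Pax7. On activation they make MyoD protein, divide, and then either return to quiescence or switch on myogenin and fuse into fibres. Quiescent cells already hold Myod1 transcripts in some states, and MyoD is held in check by Id proteins, which occupy its E-protein partners, and by RNA-binding proteins such as tristetraprolin, the product of Zfp36, which binds AU-rich stretches in messenger RNAs, that of Myod1 among them, and speeds their decay. Isolation of cells from muscle is known to induce immediate early genes such as Fos and Jun and heat shock genes.

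The sequences shown first are those that bear on these regulators. Myod1 lies at chr7:46376474-46379099 on the plus strand of mm10 (GENCODE vM21), and its last exon ends in an untranslated stretch with 2 ATTTA matches, of which 1 is the longer TATTTA. The stretch around that site, at chr7:46378967-46378996, is shown with the TATTTA match in capitals.
Myod1 3′ end: ccccttgggctaTATTTAtctcccaggcat
Over the same length, ATTTA was present in 60.8% and TATTTA in 32.8% of 12378 mouse genes with a long enough 3′ end, so these letters are common.

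For the genes whose levels differed most, the 250 bases before the start site were taken from RefSeq (GRCm38.p6, the assembly of mm10), and 4 are shown because they carry a known element of heat shock or serum-response promoters. Capitals mark GAANNTTC, a core of the heat shock element that is bound by heat shock factor, in the first 3, and a CArG box, the element bound by serum response factor, in Zfp36. The windows lie at chr17:34959239-34959488 (minus strand) for Hspa1b, chr5:135887669-135887918 (plus strand) for Hspb1, chr4:40722218-40722467 (plus strand) for Dnaja1 and chr7:28379229-28379478 (minus strand) for Zfp36.
Hspa1b: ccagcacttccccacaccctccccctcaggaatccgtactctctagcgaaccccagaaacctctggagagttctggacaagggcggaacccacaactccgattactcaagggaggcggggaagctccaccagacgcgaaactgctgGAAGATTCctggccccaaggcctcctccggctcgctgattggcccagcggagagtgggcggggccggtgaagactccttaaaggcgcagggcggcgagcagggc
Hspb1: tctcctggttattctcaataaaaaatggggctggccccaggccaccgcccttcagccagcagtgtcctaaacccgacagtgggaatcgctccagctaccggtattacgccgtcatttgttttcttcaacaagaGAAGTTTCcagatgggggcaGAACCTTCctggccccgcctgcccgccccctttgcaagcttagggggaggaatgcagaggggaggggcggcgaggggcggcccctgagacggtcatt
Dnaja1: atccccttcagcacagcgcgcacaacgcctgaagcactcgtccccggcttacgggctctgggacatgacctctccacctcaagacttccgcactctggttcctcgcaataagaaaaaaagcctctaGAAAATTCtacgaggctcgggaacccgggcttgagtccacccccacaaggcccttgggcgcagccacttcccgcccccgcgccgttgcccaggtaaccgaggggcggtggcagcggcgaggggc
Zfp36: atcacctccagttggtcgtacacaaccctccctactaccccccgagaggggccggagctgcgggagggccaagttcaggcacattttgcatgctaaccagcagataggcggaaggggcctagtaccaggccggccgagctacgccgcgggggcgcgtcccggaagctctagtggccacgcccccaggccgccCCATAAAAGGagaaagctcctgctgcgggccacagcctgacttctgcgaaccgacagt
Searched on both strands from 250 bases before to 50 after the start site, GAANNTTC was present in 7.86% of 32851 mouse promoter windows and the CArG box in 1.63%. The first bases of the matches lie 104 bases before the start site in Hspa1b, 117 and 97 before it in Hspb1, 124 before it in Dnaja1 and 58 before it in Zfp36, and no matches shown overlap one another. A match is a run of letters and was not tested for binding.

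Myod1 levels were spread over more than 3 orders of magnitude among the 16 wells. In rising order they were 1.4, 6.66, 8.91, 10.14, 11.99, 13.19, 14.14, 25.44, 26.37, 30.53, 46.96, 126.55, 379.39, 380.02, 582.9 and 2776.78 TPM. In the 38 wells without Myod1 the 2 highest values were 0.55 and 0.34 TPM and all others were 0. The wells just inside the threshold, at 1.4 and 6.66 TPM, and those just outside it, at 0.55 and 0.34 TPM, are few. A value of 0 may be a transcript that was missed: of the tested genes only 5.79% were found in more than 90% of the wells, and Dad1, a gene of general use, was found in only 25 of the 38 wells without Myod1. Myod1 was found in 29.6% of the kept wells (exact Clopper-Pearson 95% interval 18% to 43.6%, which covers counting error between wells only, as do all intervals below). None of the 10 young wells with fewer than 1000 genes had it at 1 TPM, which allows a share of up to 30.0%. Here and wherever a gene was found in 0 wells, this limit is 3 wells of the total and not the Clopper-Pearson bound.

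The wells on both sides overlapped in every measure of quality. The number of genes found ran from 1397 over a median of 1776 to 3621 in wells with Myod1, against 1127, 1981 and 3614 in wells without. Spike-in RNA took a median of 66.11% of TPM in wells with Myod1 and 63.38% in wells without. Mitochondrially encoded RNA took 3.39% and 2.867% at the median. Of 10 satellite cell markers the median well held 6 on both sides. Young well 2, without Myod1, held none of the 10. The wells had 54 different pairs of index sequences. Wells with Myod1 were spread unevenly over these: 12 of the 28 wells with the 4 lower-numbered i7 indices, the first index set, had Myod1 (42.9%, 24.5% to 62.8%), and 4 of the 26 with the 4 higher-numbered ones, the second index set (15.4%, 4.36% to 34.9%). The labels do not say what the index sets stand for, so the leading results are also given within them. Their part in the differences was not tested.

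**Figure D1:**
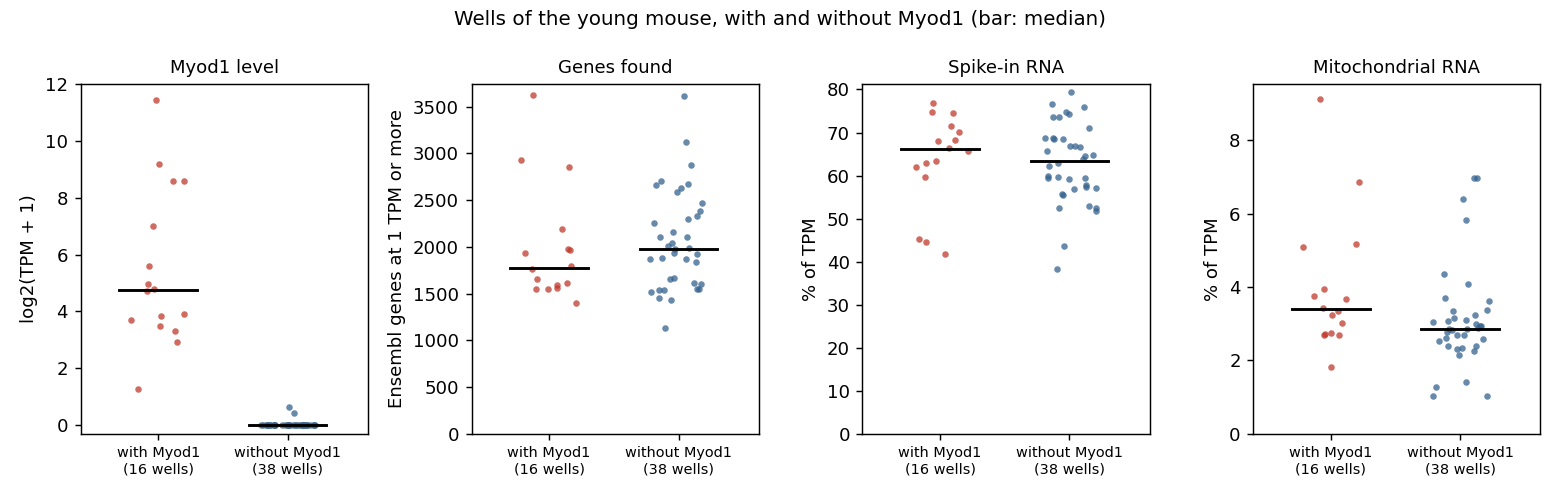
Each point is 1 well of the young mouse, in red with Myod1 and in blue without, and bars are medians. The panels give Myod1 as log2(TPM + 1), the number of genes at 1 TPM or more, and the percent of TPM in spike-in and in mitochondrial RNA; in the last 3 the sides overlap over most of their range.

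Most markers of blood, nerve sheath, tendon and vessel lining cells were found in no well, while those of fibroblasts and pericytes were found on both sides. Of 14 macrophage and myeloid markers 12 were found in no well, as were 9 of 12 lymphocyte, 6 of 11 Schwann cell, 6 of 7 tenocyte, 5 of 6 red blood cell and 9 of 12 endothelial markers. Of all 43282 Ensembl genes in the table, only 13234 besides Myod1 were found in at least 1 kept young well. Most genes of any kind were thus found in none, and these marker counts do not by themselves show that such cells were absent. The summed level of 14 fibroblast markers had a lowest, median and highest value of 8.71, 271.5 and 989.4 TPM in wells with Myod1, against 1.87, 194.7 and 1251 TPM in wells without. The summed level of 10 smooth muscle and pericyte markers was 0, 25.19 and 729.6 TPM in wells with Myod1, against 0, 117.7 and 4792 TPM in wells without. That list holds Des and Notch3, which satellite cells also express. In the comparison described below, 3 of its 4 measured genes lay below 0 and none was called. Tagln was at -1.56, Notch3 at -1.40 and Acta2 at -1.01 log2 units, and Des was at 0.23. The part of fibroblasts, pericytes and other such cells in the differences below was not tested.

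For each of the 5334 genes found in at least 6 wells, the mean of log2(TPM + 1) was compared as wells with Myod1 minus wells without, adjusted by least squares for the log2 number of genes found. A gene is called higher at an adjusted difference of 2 log2 units or more and lower at -2 or less. By this rule 22 genes (0.412%) were higher in wells with Myod1 and 27 (0.506%) were lower. The median over all genes was -0.01 log2 units, with 2638 genes above 0 and 2696 below. When each of the 54 wells was left out in turn, 25 of the 49 called genes stayed past the threshold every time. Of the genes described below, Mt1 missed it only without young well 45 (1.99), Kars only without young well 12 (-1.96), Dnaja1 only without young well 25 (-1.96), Hspa1a only without young well 35 (-1.82), and Vmp1 without young well 40 (1.88) or 58 (1.98). Pim1, Zyx, Gtf2a2, Tmem59, Cbx5 and Cers2 missed it in more than 2 runs.

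Differences were also computed within each index set, which share no well. Of 4444 genes measured in both sets, 48.7% had the same sign of difference in both. Of 85 genes called higher in the first index set, 45.9% were also above 0 in the second, and of 95 called lower there, 51.6% were below 0 in the second set. A large difference in the first set of wells was thus followed by the same sign in the second about as often as for all genes. The second set holds only 4 wells with Myod1.

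**Figure D2:**
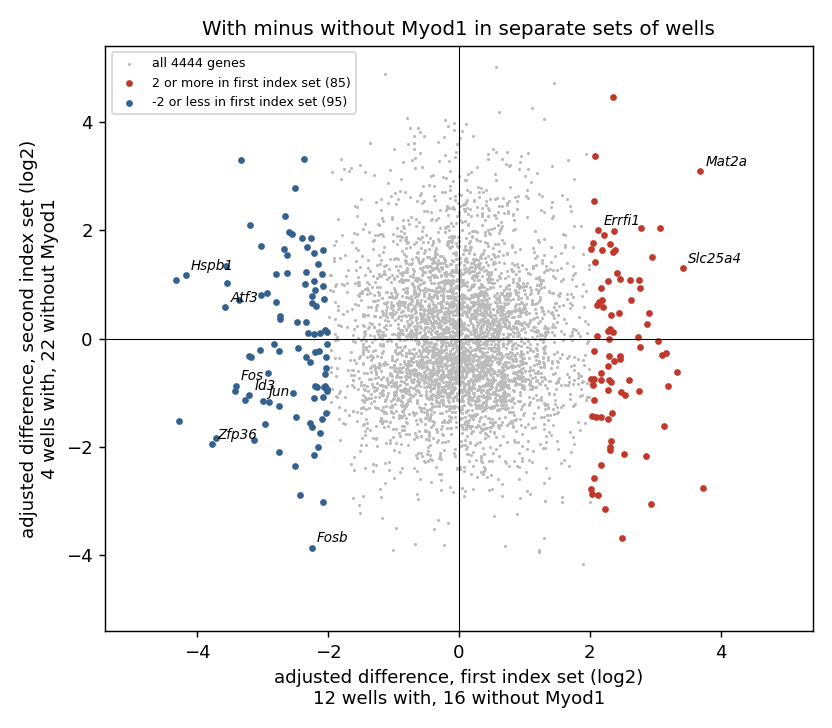
Each point is 1 of 4444 genes, with its adjusted difference (log2, wells with Myod1 minus wells without) in the first index set on the x axis and in the second on the y axis. Coloured genes are the 85 at 2 or more and the 95 at -2 or less on the x axis, and they lie on both sides of 0 on the y axis.

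Zfp36 was the regulator of Myod1 RNA with the largest difference. The gene lies at chr7:28376784-28380253 (minus strand). Its lowest, median and highest level was 0, 0.67 and 564.02 TPM in the 16 wells with Myod1, against 0, 162.5 and 2106.27 TPM in the 38 wells without. It was found in 7 of 16 wells with Myod1 (43.8%, 19.8% to 70.1%) and in 30 of 38 without (78.9%, 62.7% to 90.4%). The levels overlapped, but most wells with Myod1 had little or no Zfp36. The adjusted difference was -3.09 log2 units (SD between wells 3.63 with and 3.52 without), -3.77 within the first index set and -1.95 within the second. Leaving out any 1 well gave -3.49 to -2.89. Read the other way, 7 of the 37 wells with Zfp36 had Myod1 (18.9%, 7.96% to 35.2%) and 9 of the 17 wells without Zfp36 had it (52.9%, 27.8% to 77.0%). Zfp36 overlaps the gene model Gm44710, and no source used here says if counting used strand.

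The other 10 measured genes of a list on Myod1 RNA stability and translation showed smaller differences. The list of 11 had 1 gene called lower, Zfp36, none called higher, and a median of -0.05 log2 units. Over all genes 0.506% were called lower. Zfp36l1 and Zfp36l2, paralogs of Zfp36 that bind the same kind of element, differed by 0.21 and 0.64 log2 units. Pum2, a translational repressor, was found in 10 of 16 wells with Myod1 and in 13 of 38 without, with a difference of 1.41. Elavl1, whose product HuR stabilises AU-rich messages, differed by -0.61.

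Among immediate early and stress genes, Fos, Jun, Fosb and Atf3 were called lower in wells with Myod1, besides Zfp36. These encode subunits and relatives of the AP-1 transcription factor. Fos was at 0, 105.7 and 2526.84 TPM (lowest, median, highest) in wells with Myod1 and at 0, 1366 and 7747.13 TPM in wells without, an adjusted difference of -2.70 log2 units. Jun was at 0, 20.13 and 242.87 TPM in wells with Myod1 and at 0, 131.7 and 1031.07 TPM in wells without, a difference of -2.75. Jun was found in 10 of 16 wells with Myod1 and in 35 of 38 without, and Fos in 12 and 32. Fosb, found in 8 and 33 wells, differed by -2.64, and Atf3, found in 10 and 29, by -2.42. Jun overlaps the antisense gene Junos and Atf3 overlaps Gm24748, and their reads cannot be told apart here.

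The index sets did not give these AP-1 genes alike. Within the first index set the differences were -3.41 for Fos, -2.99 for Jun, -2.25 for Fosb and -3.57 for Atf3. Within the second they were -0.87, -1.16 and -3.86 for Fos, Jun and Fosb, while Atf3 was higher by 0.58. In wells with 2000 or more genes, 4 with Myod1 and 18 without, Fos was higher by 0.77. Over the whole list, 33 of 35 genes were measured often enough, 5 were called lower and none higher, 22 lay below 0 and the median was -0.60 log2 units, beside 0.506% of all genes called lower. Over the 31 genes of the list measured in both index sets the medians were -0.39 in the first and -0.16 in the second. Of these genes 18 (58.1%) had the same sign in both, against 48.7% of all genes. Members of the list that did not follow included Klf4 at 0.89, Rhob at 0.82, Klf6 at 0.62 and Dusp1 at 0.48 log2 units. Egr1 and Ier2, both strongly induced by serum, were at -1.21 and -1.33, Nr4a1 at -1.07 and Junb at -0.60.

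Heat shock genes formed the other group among the lower genes. Hspa1a and Hspa1b, which encode the inducible form of Hsp70, Dnajb1 and Dnaja1, which encode its Hsp40 partners, and Hspb1, which encodes a small heat shock protein, were called lower. Hspa1b was at 0, 0 and 379.29 TPM in wells with Myod1 and at 0, 94.1 and 652.23 TPM in wells without, and was found in 7 of 16 wells and 32 of 38 wells. Its adjusted difference was -2.68 log2 units, that of Hspa1a -2.27, of Dnajb1 -2.54, of Dnaja1 -2.25 and of Hspb1 -2.37. Hspa1a and Hspa1b are near-identical copies, whose promoter windows agree at 296 of 300 bases, so reads may have been divided between them and both values are uncertain. In wells with 2000 or more genes Hspa1a was higher by 0.41. Dnaja1 overlaps Smu1, and Hspa1a overlaps Gm20481.

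Of 28 heat shock and chaperone genes measured, 5 were called lower and none higher, 22 lay below 0 and the median was -0.49 log2 units. Over all genes 0.506% were called lower. Over the 27 genes of the list measured in both index sets the medians were -0.63 in the first and -0.18 in the second. Of these genes 15 (55.6%) had the same sign in both, against 48.7% of all genes. Subunits of the chaperonin TRiC were split, with Tcp1 at 1.87, Cct2 at 1.51 and Cct5 at -1.09. Chaperones of mitochondria and the endoplasmic reticulum were split too, with Hspa9 at 1.23, Hspa5 at 0.94 and Hspd1 at 0.63, but Hspe1, the partner of Hspd1, at -1.28, Dnajb9 at -1.44 and Hsp90b1 at -0.54. Within the second index set Hspb1 was higher by 1.17, and Dnajb1 differed by -0.34, against -4.17 and -3.17 within the first. The pseudogene Hsp25-ps1, a copy of Hspb1, had the same pattern, at -2.51 over all wells and 1.09 within the second.

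The heat shock core GAANNTTC was present in the promoter windows of 5 of the 21 lower genes with a RefSeq window, namely Hspa1a, Hspa1b, Hspb1, Dnaja1 and Jun, which is 23.8%. It was present in 1 of 14 higher genes with a window (Vmp1), in 10 of 22 genes of the heat shock list (45.5%) and in 7.02% of the tested genes. The E-box CAGCTG, the form that MyoD prefers, was present in 5 of the 21 lower genes and 2 of the 14 higher genes. Among the tested genes its share was 16.3%. The CArG box was present in 1 of the 21 lower genes (Zfp36), in 0 of the 14 higher genes and in 2 of 28 genes of the immediate early list. It was present in 2.02% of the tested genes. The heat shock genes themselves account for 4 of the 5 lower genes with GAANNTTC.

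**Figure D3:**
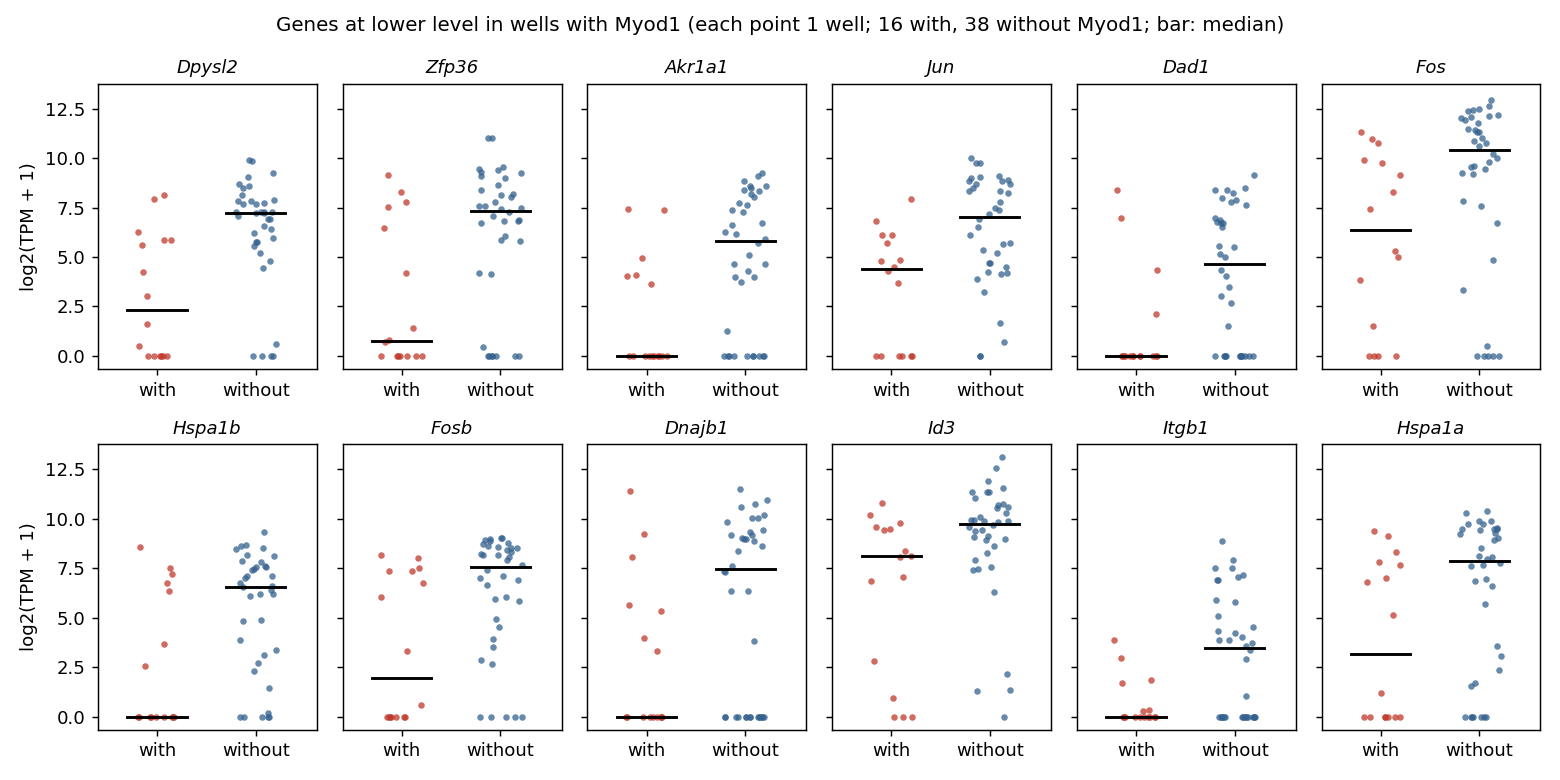
The 12 lower genes with the largest difference among those with a mean of 5 TPM or more and 1 direction in both index sets (which leaves out Atf3 and Hspb1), as log2(TPM + 1) on the y axis; each point is 1 well, with Myod1 at left (16 wells) and without at right (38 wells), and bars are medians. The medians are lower in wells with Myod1 and the ranges overlap for all 12, with many wells at 0.

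Immediate early and heat shock genes varied together from well to well. The mean log2(TPM + 1) of the 34 immediate early genes in the table was 1.17, 2.48 and 4.67 (lowest, median, highest) in wells with Myod1 and 0.83, 3.51 and 5.42 in wells without. That of 29 heat shock genes was 2.06, 3.29 and 5.32 in wells with Myod1 and 0.51, 4.11 and 6.68 in wells without. Across the 54 wells both means correlated at r = 0.729, a description of wells that also share depth and spike-in share. After adjustment for genes found the immediate early mean was lower by 0.65 log2 units in wells with Myod1 and the heat shock mean by 0.54. Within the first index set the differences were -0.74 and -0.80, and within the second they were -0.17 and -0.07.

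**Figure D4:**
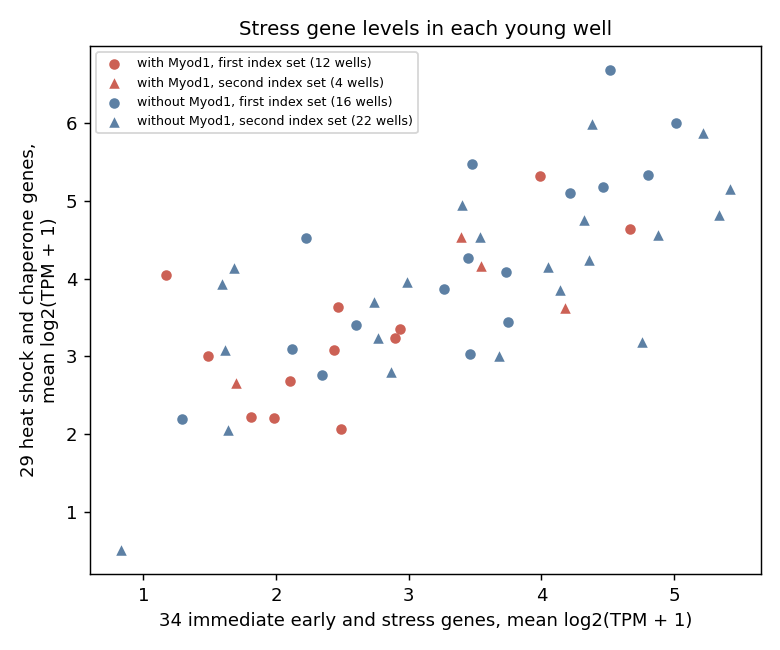
Each point is 1 young well, placed by the mean log2(TPM + 1) of 34 immediate early and stress genes (x axis) and of 29 heat shock and chaperone genes (y axis). Wells with Myod1 (red) lie mostly at the lower left but reach 4.67 on the x axis, and circles and triangles mark both index sets.

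Id3, an inhibitor that binds the E-protein partners of MyoD, was lower in wells with Myod1. It was at 0, 275.7 and 1763.09 TPM in wells with Myod1, against 0, 865.9 and 8863.86 TPM in wells without, and was found in 12 of 16 (75.0%, 47.6% to 92.7%) and in 37 of 38 wells (97.4%, 86.2% to 99.9%). The adjusted difference was -2.48 log2 units, -3.20 within the first index set and -1.05 within the second. Of the 5 wells without Id3, 4 had Myod1. In a list of 15 Id proteins and other MyoD inhibitors, 9 were measured often enough, 1 was called lower and none higher, 7 lay below 0 and the median was -0.83. Over all genes 0.506% were called lower. Of the 8 listed genes measured in both index sets 4 (50.0%) had the same sign in both, against 48.7% of all genes. Id2 and Bhlhe40, a repressor of MyoD activity, were at -1.36 and -1.43, and Msc, which competes with MyoD for E-boxes, at -1.003. Id1 was at 0.45. In the second index set Id2 was at 0.80 and Id1 at 2.22.

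The other muscle regulatory factors were compared next. Myf5, the factor that satellite cells express with Pax7, was found in all 16 wells with Myod1 (79.4% to 100%) and in 34 of 38 without (89.5%, 75.2% to 97.1%). Its level was 59.89, 677 and 2664.48 TPM in wells with Myod1, against 0, 377.4 and 2573.01 TPM in wells without, an adjusted difference of 1.09 log2 units, 1.35 and 1.26 in the index sets. Myog, which encodes myogenin and marks differentiation, was at 0 in all 54 wells, which allows shares of up to 18.8% with Myod1 and 7.89% without. Myf6 was found in 1 well on each side, as was Mki67, a marker of dividing cells. Mef2c was found in 0 and 3 wells, and Pax3 in none.

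Pax7 was found in 14 of 16 wells with Myod1 (87.5%, 61.7% to 98.4%) and in 24 of 38 without (63.2%, 46% to 78.2%). Its level was 0, 10.2 and 228.49 TPM in wells with Myod1 and 0, 4.765 and 110.64 TPM in wells without, a difference of 0.91 log2 units, with 1.69 in the first index set and 0.04 in the second. Calcr, a receptor that keeps satellite cells quiescent, differed by -0.54 and Cd34, a surface marker of quiescent satellite cells, by 0.31. Of 18 measured genes for satellite cell identity, 1 was called lower and none higher, and the median was 0.06. Over all genes 0.506% were called lower. The called gene of the list was Itgb1, the integrin beta-1 chain, found in 4 of 16 wells with Myod1 and 22 of 38 without, at -2.33. Cd47, the study's subject, which encodes a signal against phagocytosis, was found in 10 of 16 and 18 of 38 wells and differed by 0.47, with -0.09 and 2.43 in the index sets.

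The 5 wells with Myod1 above 100 TPM did not share 1 pattern. Young well 58, with 2776.78 TPM, had 1539 TPM of Myf5, no Pax7, no Zfp36 and no Id3. Young well 1, with 582.9 TPM, had 60.41 TPM of Myf5, 59.83 TPM of Pax7, no Zfp36 and 727.05 TPM of Id3. Young well 5, with 379.39 TPM of Myod1, had 174.71 TPM of Pax7, 60.2 TPM of Myf5 and the most Cdkn1a of the 16 wells, 780.62 TPM. Its Zfp36 was at 1.64 TPM and its Id3 at 130.98 TPM. Young well 26, with 380.02 TPM of Myod1, had 467.17 TPM of Cdkn1a, no Zfp36 and 6.03 TPM of Id3. Young well 18, with 126.55 TPM of Myod1, had the most Zfp36 of the 16, 564.02 TPM, together with 293.4 TPM of Calcr and 270.07 TPM of Id3. Low Zfp36 was therefore common but not general among the wells richest in Myod1.

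Genes that act above and below MyoD came next. Of 6 measured upstream regulators, 3 lay above 0 and 3 below and none was called. Foxo3, a transcription factor reported to act on the Myod1 promoter, was found in 9 of 16 wells with Myod1 (56.2%, 29.9% to 80.2%) and in 5 of 38 without (13.2%, 4.41% to 28.1%), a difference of 1.19 log2 units and of 1.23 and 0.99 in the index sets. Its paralog Foxo1 was found in 0 of 16 and 13 of 38 wells, at -1.44, and was not called. The share of all tested genes found in 0 of the 16 wells with Myod1 is not given, so this count has no background. Of 8 measured targets of MyoD in differentiation, 4 lay above 0, with Cdkn1a, the cell cycle inhibitor p21, at 1.003 and Chrnb1, a subunit of the muscle acetylcholine receptor, at 0.87. Chrna1, another subunit, was at -0.35 and Musk at -0.73. Of 18 chromatin partners of MyoD, 8 lay above 0 and none was called. The E proteins Tcf12 and Tcf4, the dimer partners, were at 0.18 and 0.34.

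Notch signalling keeps satellite cells quiescent. Of 15 measured Notch pathway genes none was called, 11 lay below 0 and the median was -0.47 log2 units. Jag1, a ligand, was found in 6 of 16 wells with Myod1 and in 25 of 38 without, at -1.90. Notch3, a receptor that is also on the pericyte list, was found in 3 and 24 wells, at -1.40. Hey1, a target, was found in 1 and 9, at -1.20. Notch1 and Notch2 were at -0.11 and -0.55. In the index sets the medians were -0.56 and -0.48 over the 14 genes measured in both, of which 7 (50.0%) had the same sign in both, against 48.7% of all genes. Of 17 genes of growth factor and p38 signalling 12 lay above 0, with a median of 0.48. That median was 0.03 when only wells with 10 TPM of Myod1 or more were set against those under 1. In wells with 2000 or more genes it was 0.08. Over the 14 genes of this list measured in both index sets the medians were -0.07 in the first and -0.26 in the second. Of these 14 genes 6 (42.9%) had the same sign in both sets.

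Among the higher genes, Mat2a, Errfi1, Slc25a4 and Hdlbp were each found in at least 13 of the 16 wells with Myod1. Mat2a encodes the enzyme that makes S-adenosylmethionine, the methyl donor. It was at 0, 173.1 and 584.11 TPM in wells with Myod1 and at 0, 13.87 and 768.37 TPM in wells without, and was found in 14 of 16 and 23 of 38 wells. Its difference was 2.86 log2 units, 3.68 and 3.09 in the index sets, and 2.67 to 3.29 when any 1 well was left out. Errfi1, a feedback inhibitor of the EGF receptor, was found in all 16 wells with Myod1 and in 24 of 38 without (63.2%, 46% to 78.2%). Errfi1 was at 21.47, 79.52 and 896.94 TPM in wells with Myod1, against 0, 32.59 and 1146.95 TPM in wells without, a difference of 2.41, with 2.12 and 2.00 in the index sets.

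Slc25a4, the mitochondrial ADP/ATP carrier of muscle, was also found in all 16 wells with Myod1 and in 26 of 38 without. It was at 1.44, 102.2 and 526.1 TPM in wells with Myod1 and at 0, 21.22 and 325.23 TPM in wells without, a difference of 2.35 log2 units, 3.42 and 1.30 in the index sets. Hdlbp, which encodes the RNA-binding protein vigilin, was found in 13 and 18 wells, at 2.48. Mt1, a metallothionein, was at 0, 2185 and 6967 TPM in wells with Myod1 and at 0, 901 and 9853.87 TPM in wells without, at 2.24. Pim1, a survival kinase, was found in 15 and 29 wells, at 2.06, and Zyx, a focal adhesion protein, in 13 and 21, at 2.05. Vmp1, an autophagy gene that overlaps Mir21a, was found in 10 and 12 wells, at 2.33. Zfc3h1, of the nuclear RNA decay machinery, was found in 10 and 7 wells, at 2.69.

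**Figure D5:**
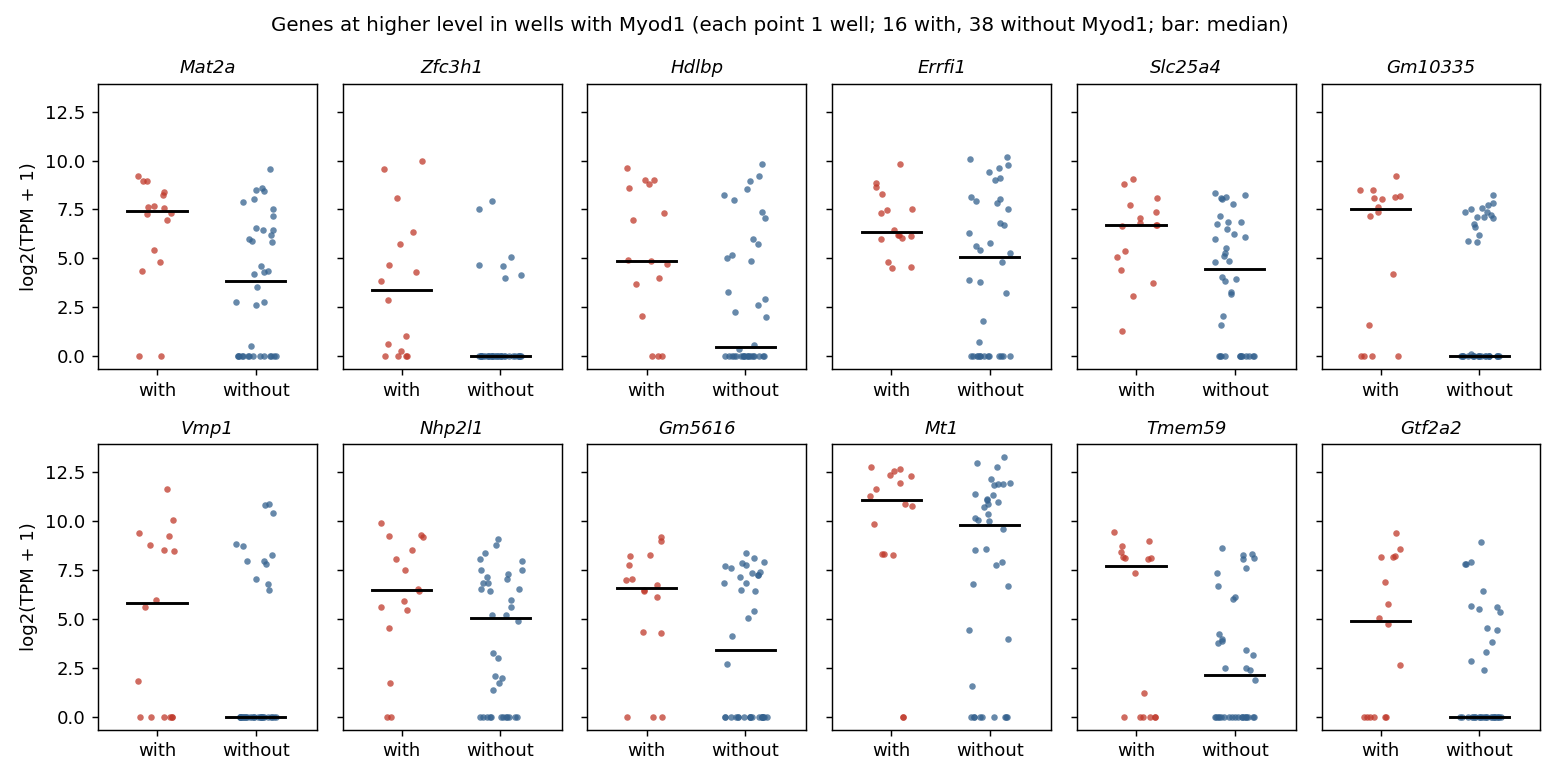
The 12 higher genes with the largest difference among those with a mean of 5 TPM or more, found in 50% of the wells with Myod1 and with 1 direction in both index sets, as log2(TPM + 1) on the y axis; each point is 1 well, with Myod1 at left (16 wells) and without at right (38 wells), and bars are medians. All 16 wells with Myod1 are above 0 for Errfi1 and Slc25a4, and the ranges overlap for all 12.

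The remaining named genes at the extremes were of mixed function. Dpysl2, a microtubule-binding protein, had the largest negative difference, at -3.12 log2 units, and was found in 9 of 16 wells with Myod1 and 33 of 38 without. Akr1a1, an aldehyde reductase, was at -2.77 and Dad1, a subunit of the oligosaccharyltransferase, at -2.72. Higher genes included Nhp2l1, a component of the spliceosome, at 2.27, Tmem59 at 2.21 and Gtf2a2, a subunit of transcription factor IIA, at 2.17, and the processed pseudogenes Gm10335 at 2.35 and Gm5616 at 2.26, whose reads may come from parent genes. In wells with 2000 or more genes Nhp2l1 was at -0.88 and Gm5616 at -1.19. Strand being unstated, reads of overlapping genes also cannot be told apart for Mat2a (with Particl), Errfi1 (1700045H11Rik), Hdlbp (Gm17415), Pim1 (Gm26885), Zyx (Epha1), Tmem59 (Tceanc2), Gm10335 (Adgrg6) and Cers2 (Setdb1). Chosen after their values were seen, Kars, Cbx5 and Cers2 were found in 0 of 16 wells with Myod1, which allows up to 18.8%, and in 12, 14 and 13 of 38 without. The share of all tested genes with such a count of 0 is not given.

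Genes of growth and metabolism lay on both sides of 0. Of 80 cytosolic ribosomal protein genes 71 lay above 0, with a median of 0.36 log2 units, but none was called, and the median was 0.39 in the first index set and -0.03 in the second. Of 33 translation factors 19 lay above 0, led by Eif4e, the cap-binding protein, at 1.98, and Eef2, the translocation factor, at 1.67. Of 16 glycolysis genes 13 lay above 0, with Aldoa at 1.73 and Hk2 at 1.64 and a median of 0.22 that was 0.51 in the first index set and -0.71 in the second. Of 14 mitochondrially encoded genes 11 lay above 0, with a median of 0.47 that was 0.57 in the first index set and 0.10 in the second, where 8 lay above 0 and 2 were called lower. Of 9 cell cycle entry genes 4 lay above 0, with Myc at 1.596 and Ccnd1 at -0.33, and 4 genes of DNA replication and mitosis could be measured, of which none was called.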

How the data were processed

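Expression was measured by RNA sequencing in single-cell wells of muscle stem cells. The deposited values are TPM, per the labels. The authors aligned reads with STAR to mm10, per the submitters' processing notes; no source used here gives the annotation, counting tool, strandedness or the method for wells. The columns sum to 999781.3 to 1000000 TPM. TPM are shares of a library and hold no read counts, so depth is unknown, and the number of genes found stood in for it.

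Of the entries in the table of wells, 43282 Ensembl IDs were used, of which 42781 are in GENCODE vM21 (positions). The 92 spike-ins were not compared as genes, and 2423 entries with neither kind of ID were left out. The TPM of both stayed in the total of each well, and the other values were not rescaled in the main comparison. Spike-ins took 41.81% to 76.81% of TPM in wells with Myod1 and 38.24% to 79.3% in wells without, and so bear on the scale of every value. The rescaling of nuclear genes, given below, left out spike-ins and mitochondrial genes. All kept wells come from 1 mouse, so cells were described, not tested. Doublets were not assessed and no caller was run. Differences used log2(TPM + 1) and the 5334 genes found in at least 10% of the 54 wells. The fit was run on simulated data, in which each gene was shuffled on its own, and returned known added shifts on average. That checks the arithmetic of the fit and not the calls. The 38 gene lists and the members were chosen with earlier results of these data known. Named were 20 regulators and markers; the 12 genes with the largest difference in each direction among those called with a mean of 5 TPM or more, found in 50% of wells of the higher side and with the same direction unadjusted and in both index sets; and up to 4 members per list. Since that rule asks for 1 direction in both index sets, it supports nothing on that point. Other genes are named for their role or after their values were seen. The alternatives were other adjustments, pseudocounts, filters, Myod1 thresholds, a rescaling, index sets and leaving out each well. The same division of the old wells was not compared, as fewer than 3 wells had Myod1. Of the 8 bulk libraries only the 3 young ones are given, as levels. Fits used numpy 2.4.6 in Python 3.11.15, intervals scipy 1.17.1, tables pandas 2.3.3 and plots matplotlib 3.10.9.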

Additional observations from a re-analysis of the deposited data

How the results depend on the processing

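The counts of 22 higher and 27 lower genes depended on the scale more than on the adjustment. A pseudocount of 0.1 gave 153 and 134 and one of 10 gave 0 and 1; a call at 1 log2 unit gave 347 and 340 and one at 3 units 0 and 2. Rescaling nuclear genes to 1000000 gave 71 and 58, wells with 2000 or more genes (4 with and 18 without Myod1) 489 and 385, the first index set alone 95 and 99, and the second alone 325 and 170. Myod1 at 10 TPM or more against under 1 gave 41 higher. Leaving out each well gave 19 to 31 higher and 23 to 32 lower. With no adjustment for genes found the counts were 15 and 34.

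The 5 lower immediate early genes became 1 at a pseudocount of 10, 8 in the first index set, 2 in the second, and 12 and 1 for calls at 1 and 3 units. The 5 lower heat shock genes became 0 at a pseudocount of 10, 3 with Myod1 above 0 TPM, 9 in wells with 2000 or more genes, 3 in the second index set, and 9 and 0 for calls at 1 and 3 units. Leaving out each well gave 5 to 5 and 4 to 5.

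Among called genes, the sign turned within the second index set for Atf3 (0.58), Hsp25-ps1 (1.09), Hspb1 (1.17) and Usp22 (0.075). In wells with 2000 or more genes it turned for Fos (0.77), Gm28875 (4.25), Gm5616 (-1.19), Hspa1a (0.41) and Nhp2l1 (-0.88). The cause was not tested. Signs of genes that were not called turned too, such as that of Id2. Of the 22 higher and 27 lower genes, 12 and 21 were called again with Myod1 above 0 TPM, 15 and 26 with no adjustment, 18 and 21 with a term for the index set, and 8 of 20 measured and 11 of 27 in the second index set. Chosen after the data were seen were a term for the index set (31 and 32) and leaving out the well with no satellite cell marker (23 and 26).

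No paired analysis was possible because the result comes from no test and well numbers are only names. The share of wells with a gene among the 1000 most abundant was computed with no call.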

Other observations

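Several further list members also differed in how often they were found. Tgfbr1, a receptor of TGF-beta, and Tenm4, a teneurin listed among satellite cell genes, were each found in 0 of 16 wells with Myod1, which allows up to 18.8%, and in 14 of 38 wells without. Both were named for the size of their difference within their lists, and neither was called (-1.355 and -1.234 log2 units). For these and the other genes found in 0 of 16 wells with Myod1, the share over all tested genes is not given. In the TGF-beta, BMP and Wnt list of 20 measured genes none was called and the median was -0.23 log2 units, with Tgfbr3 at -0.97, Tcf7l2 at -1.11 and Smad3 at 0.86. Of 16 measured matrix genes of satellite cells 12 lay below 0, with Bgn, a small proteoglycan, at -1.69 and Timp2, a protease inhibitor, at -1.18, while Dcn, a related proteoglycan that is also a fibroblast marker, was at 1.57.

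Of the 7 kept wells of the mouse aged 24 months, 2 had Myod1, at 21.53 and 158.63 TPM. In these wells Zfp36 was at 18.92 and 1.73 TPM, against 0, 264.98, 0, 0 and 164.79 TPM in the 5 old wells without Myod1. Fos was at 4278.54 and 0 TPM in the old wells with Myod1, against 1858.63, 933.93, 0, 20.22 and 241.2 TPM in those without.

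In bulk libraries, Myod1 was at 33.35, 17.38 and 6.33 TPM in young mice. Zfp36 was at 2672.47, 2922.33 and 2107.7 TPM in the same libraries, Fos at 1263.14, 1112.6 and 1188.03 TPM and Id3 at 101.72, 96.24 and 62.7 TPM. In the wells spike-in RNA took a median of 66.11% of TPM with Myod1 and 63.38% without, and its share in bulk libraries is not given here. Levels in wells and in bulk libraries are therefore not to be compared directly. In bulk samples, fewer cells with a transcript and less of it per cell cannot be told apart.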
